A study of Rattus norvegicus with 7 samples.

Results

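The cadherins and protocadherins are 71 of the 25399 genes listed for rat kidney nuclei. They were taken as every gene whose symbol starts with Cdh and a digit, or with Pcdh. The 1-kidney group held 3 libraries and the 2-kidney group 4. The labels give the source as HSRA-S rats (3) and HSRA-C rats (4), counts that match the 1-kidney and 2-kidney titles. All animals belonged to the HSRA rat model of nephron deficit and were 4 weeks old, no drug or transgene is named for either group, and each library came from a central piece of archived kidney with cortex and medulla. Single nuclei were captured with a 3′ droplet chemistry, and transcripts were counted by unique molecular identifiers (UMIs). The labels do not describe the replicates further, so p-values measure the spread between these libraries.

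Cadherins are calcium-dependent adhesion proteins that bind partners on a neighbouring cell through repeated extracellular domains. The classical members, types I and II, hold on to the actin cytoskeleton through catenins, and different epithelia and vessels of the kidney are known for different members. Protocadherins have a different cytoplasmic tail. Those of the alpha, beta and gamma loci lie in tandem arrays, each with promoters of their own, and the alpha and gamma transcripts of a locus end in shared constant exons, so 3′ reads may not separate those genes and their single-gene values are uncertain.

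After filtering, 31227 nuclei remained, from 2263 to 5952 a library, with 5581726 to 27069633 UMIs a library and a median of 1440 to 2513 UMIs a nucleus. The 1-kidney libraries had medians of 1440, 1727 and 1965.5 UMIs a nucleus and the 2-kidney libraries 1873, 2175, 2154.5 and 2513. Library pairs shared 3 to 14 barcodes. Nuclei were clustered without any cadherin or protocadherin gene, and 15 classes were named from marker genes. The 781 cycling nuclei are not described by level, which leaves 14 classes, and the names are from markers only, so that "fibroblast" below stands for fibroblast-like nuclei and likewise for the others. Among the markers that led the clusters were Slc12a1 for the thick ascending limb, Emcn for the endothelium, Nphs1 for podocytes and Fbln5 for fibroblasts. Left without a name were 5689 nuclei with 44.5% of the UMIs. The largest unnamed cluster, with 3243 nuclei and 51002938 UMIs, had the proximal tubule markers Slc34a1 and Slc5a2 among its top 10 genes. Its median doublet score of 0.0995 was the highest of any cluster. The class named proximal tubule leaves this cluster out. Naming nuclei one by one by marker score gave the same class for 62.5% of the named nuclei. The larger of the clusters named thin limb, with 808 of the 1297 nuclei, had Akap12, a marker of parietal epithelium, and no thin limb marker among its top 10 genes. In the thin limb class the 5 parietal markers summed to 1066, 2284 and 883 CPM in 1-kidney libraries and 687, 867, 477 and 462 CPM in 2-kidney libraries. The 7 thin limb markers summed to 974, 196 and 838 CPM in 1-kidney libraries and 1162, 800, 972 and 1021 CPM in 2-kidney libraries. The class is therefore not compared between groups, and the part of parietal epithelium in its levels was not tested. Levels are CPM, the UMIs of a gene scaled to a fixed total for each class and library, for libraries with at least 20 nuclei of the class, and they are not compared between genes. Free RNA was gauged by Slc34a1, a proximal tubule phosphate transporter. It averaged 2670 CPM in podocytes and 29498 CPM in macrophages and dendritic cells, against 23364 CPM in the class named proximal tubule. The largest unnamed cluster had 33288 CPM. For each class the Slc34a1 level relative to all nuclei, or for the proximal tubule the highest such ratio of Nphs1, Slc12a1 and Aqp2, gave the level of a member that free RNA alone could reach.

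At least 1 UMI was found for 70 of the 71 members and at least 100 UMIs for 47. Together they held 117987 UMIs, or 0.0953% of all UMIs. A mean of 20 CPM or more in some class was reached by 28 members, all of which are described below. The class with the highest mean was the fibroblast for 14 of these 28, the endothelium for 4, the urothelium for 4, mural cells for 3, and the proximal tubule, principal cells and macula densa for 1 each. The library values of the highest class lay wholly above those of the next class for only 4 of the 28: Cdh2, Cdh5, Cdh11 and Pcdh17. The other 43 members had a mean below 20 CPM in every class, though values of single libraries could be higher, and Pcdhb1 had no UMI.

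**Figure D1:**
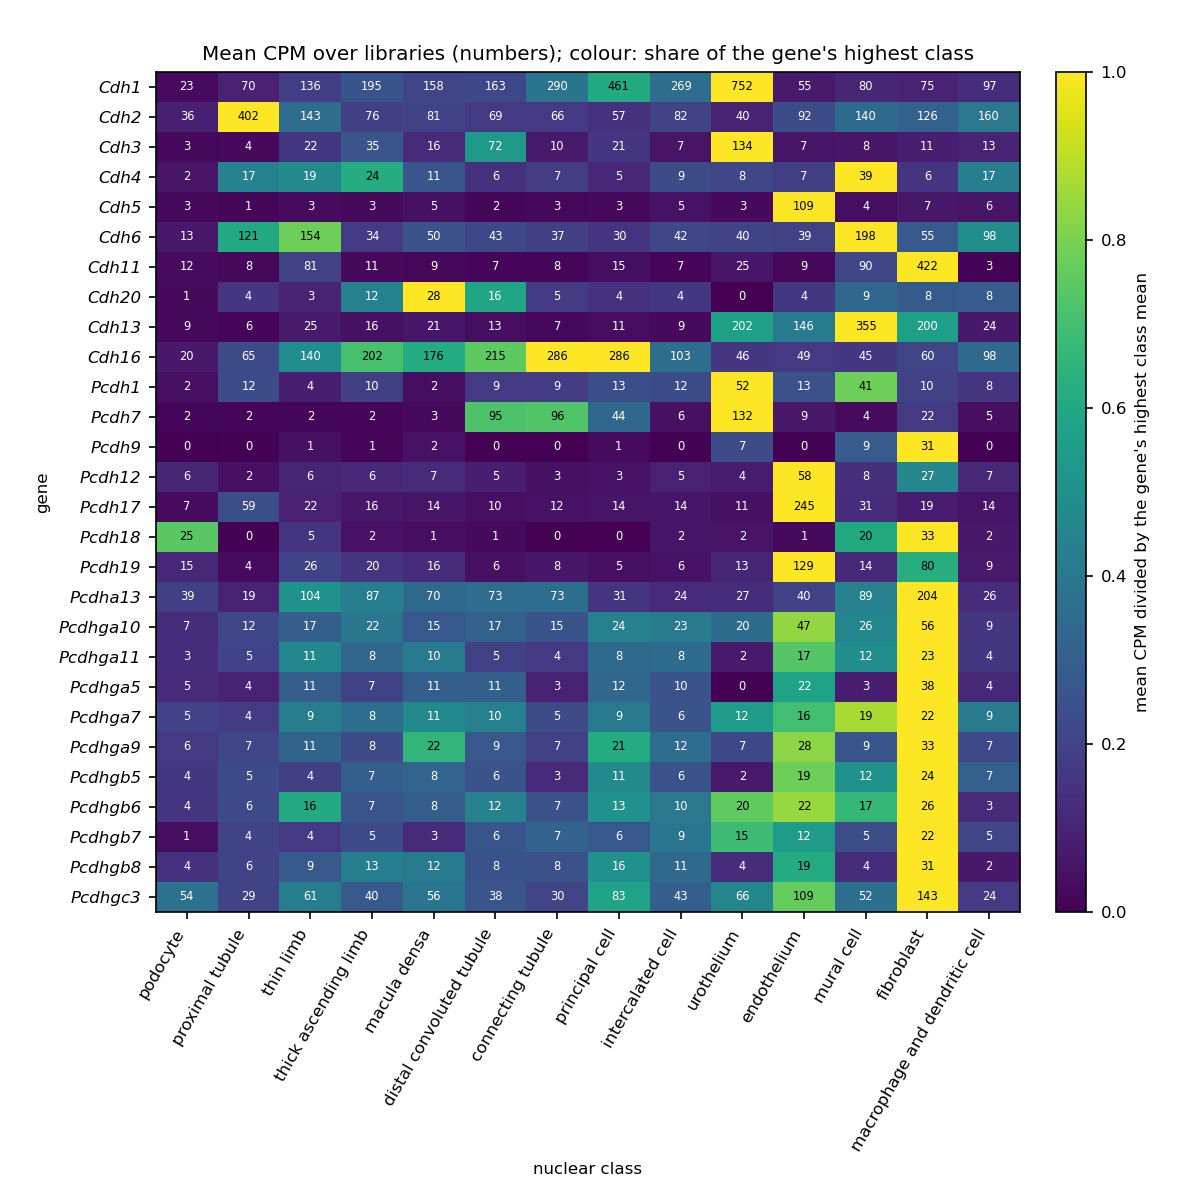
Mean CPM of the 28 members in each of 14 nuclear classes; the printed number is the mean over libraries and the colour is that mean divided by the gene's highest class mean. Cdh2 peaks in the proximal tubule at 402 CPM, Cdh5, Pcdh12, Pcdh17 and Pcdh19 in the endothelium, and Cdh11 and 10 gamma protocadherins in fibroblasts.

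Of the type I cadherins, Cdh1 (E-cadherin, the main adhesion protein of most epithelia) was measured highest along the distal nephron and collecting system. Urothelial nuclei had 719 CPM in the 1-kidney library with enough of them and 574, 689 and 1026 CPM in the 3 such 2-kidney libraries. Principal cells of the collecting duct had 352, 289 and 582 CPM in 1-kidney libraries and 347, 552, 479 and 627 CPM in 2-kidney libraries. The ranges of these classes overlap, as do those of both groups within principal cells. The mean was 290 ± 62.3 CPM in the connecting tubule, 269 ± 77.9 in intercalated cells, 195 ± 34.6 in the thick ascending limb, 163 ± 31.4 in the distal convoluted tubule, 136 ± 36.03 in the thin limb and 70.4 ± 15.6 in the proximal tubule (SD, n = 7 libraries each). Neighbours in this order overlap. In principal cells Cdh1 was higher than in the proximal tubule in 7 of 7 libraries, with a mean log2 difference of 2.67 ± 0.57 (SD; exact two-sided sign-flip permutation test, p = 0.015625, the smallest that 7 libraries allow, adjusted p = 0.0179 over 8 such class contrasts).

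Cdh2 (N-cadherin, known in neurons and mesenchyme and also in the proximal tubule) had its highest level in the proximal tubule. Proximal tubule nuclei had 287, 296 and 444 CPM in 1-kidney libraries and 363, 570, 463 and 389 CPM in 2-kidney libraries, while podocytes had the lowest mean, 35.7 ± 12.8 CPM (SD, n = 7). Every proximal tubule value lay above every value of the next class, macrophages and dendritic cells, whose mean of 160 CPM did not exceed the free-RNA level. Only the proximal tubule, the thin limb (143 ± 41.5 CPM) and the thick ascending limb (76.0 ± 21.3 CPM) exceeded that level in all 7 libraries. Cdh2 was higher in the proximal tubule than in the thick ascending limb in 7 of 7 libraries, by 2.40 ± 0.38 on the log2 scale (SD; exact sign-flip test, adjusted p = 0.0179). Within the proximal tubule the level differed between clusters: it was 521 ± 164 CPM in the larger cluster led by Slc7a13, a transporter of the straight part, and 217 ± 64.5 CPM in the cluster led by Slc13a3 (SD, n = 7), with no overlap between their library values. The place of Cdh2 depended on how nuclei were named: with classes from the marker score its highest mean was in the thin limb, at 429 ± 172 CPM, against 229 ± 64.0 CPM in the proximal tubule (SD, n = 7), and the log2 difference of proximal tubule over thick ascending limb was 0.75 (exact sign-flip test, adjusted p = 0.0156).

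Cdh3 (P-cadherin, a basal-layer epithelial cadherin) had its highest mean in the urothelium, at 134 ± 45.7 CPM (SD, n = 4 libraries). The distal convoluted tubule followed at 71.5 ± 34.2 CPM, the thick ascending limb at 35.04 ± 21.9 and principal cells at 21.3 ± 3.02 CPM (SD, n = 7), and these were the 4 classes above the free-RNA level in every library. Connecting tubule nuclei, which lie between the distal convoluted tubule and the collecting duct, had 9.60 ± 9.02 CPM. Cdh4 (R-cadherin, known from retina and developing kidney) was at or below 39.3 CPM in every class. Its highest mean, in mural cells, rested on 12 UMIs, and it exceeded the free-RNA level in all libraries in the thick ascending limb (24.4 ± 6.75 CPM) and the proximal tubule (17.5 ± 5.32 CPM).

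Among the type II cadherins, Cdh5 (VE-cadherin, the adherens junction protein of endothelium) had its highest level in the endothelium. Endothelial nuclei had 104, 88.6 and 93.9 CPM in 1-kidney libraries and 116, 104, 130 and 127.6 CPM in 2-kidney libraries, and no other class had a mean above 6.93 CPM, that of fibroblasts. The log2 difference between endothelium and fibroblasts, after adding 1 CPM, was 4.10 ± 1.22 and was positive in 7 of 7 libraries (SD; exact sign-flip test, adjusted p = 0.0179). The endothelium was the single class above the free-RNA level for Cdh5 in all libraries.

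Cdh6 (K-cadherin, first described in fetal kidney and kidney cancer) was measured in thin limb and proximal tubule. Nuclei named thin limb had 124 to 231 CPM over the 7 libraries, while proximal tubule nuclei had 95.4, 105 and 82.3 CPM in 1-kidney libraries and 143, 140, 147 and 131 CPM in 2-kidney libraries. The highest mean, 198 ± 81.7 CPM in mural cells (SD, n = 6), rested on 62 UMIs, and the ranges of these classes overlap. Within the proximal tubule the order of the clusters was the reverse of that of Cdh2: Cdh6 averaged 92.4 ± 27.0 CPM in the Slc7a13 cluster and 164 ± 25.2 CPM in the Slc13a3 cluster (SD, n = 7), with library values of 64.0 to 138 and 139 to 205 CPM. Cdh6 was higher in the proximal tubule than in principal cells in 7 of 7 libraries, by 2.09 ± 0.92 on the log2 scale (SD; exact sign-flip test, adjusted p = 0.0179).

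Cdh11 (OB-cadherin, a cadherin of mesenchyme and fibroblasts) reached 252, 219 and 225 CPM in fibroblasts of 1-kidney libraries and 601, 534, 440 and 683 CPM in those of 2-kidney libraries. Even the lowest of these values lay above the highest value of the next class, mural cells (89.8 ± 66.9 CPM, n = 6). The thin limb had 81.2 ± 29.8 CPM (SD, n = 7). Fibroblasts exceeded endothelium in 7 of 7 libraries, by 5.66 ± 1.48 on the log2 scale (SD; exact sign-flip test, adjusted p = 0.0179). With classes from the marker score, parietal epithelium is a class of its own. Cdh11 then averaged 224 ± 99.6 CPM in fibroblasts and 108 ± 39.8 CPM in parietal epithelium (SD, n = 7), with overlapping ranges. Cdh20, a type II cadherin described mainly in the nervous system, was low throughout. Its highest mean, 27.8 ± 24.4 CPM in the macula densa, rested on 23 UMIs, followed by 16.4 ± 5.77 CPM in the distal convoluted tubule and 12.2 ± 4.47 CPM in the thick ascending limb (SD, n = 7).

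**Figure D2:**
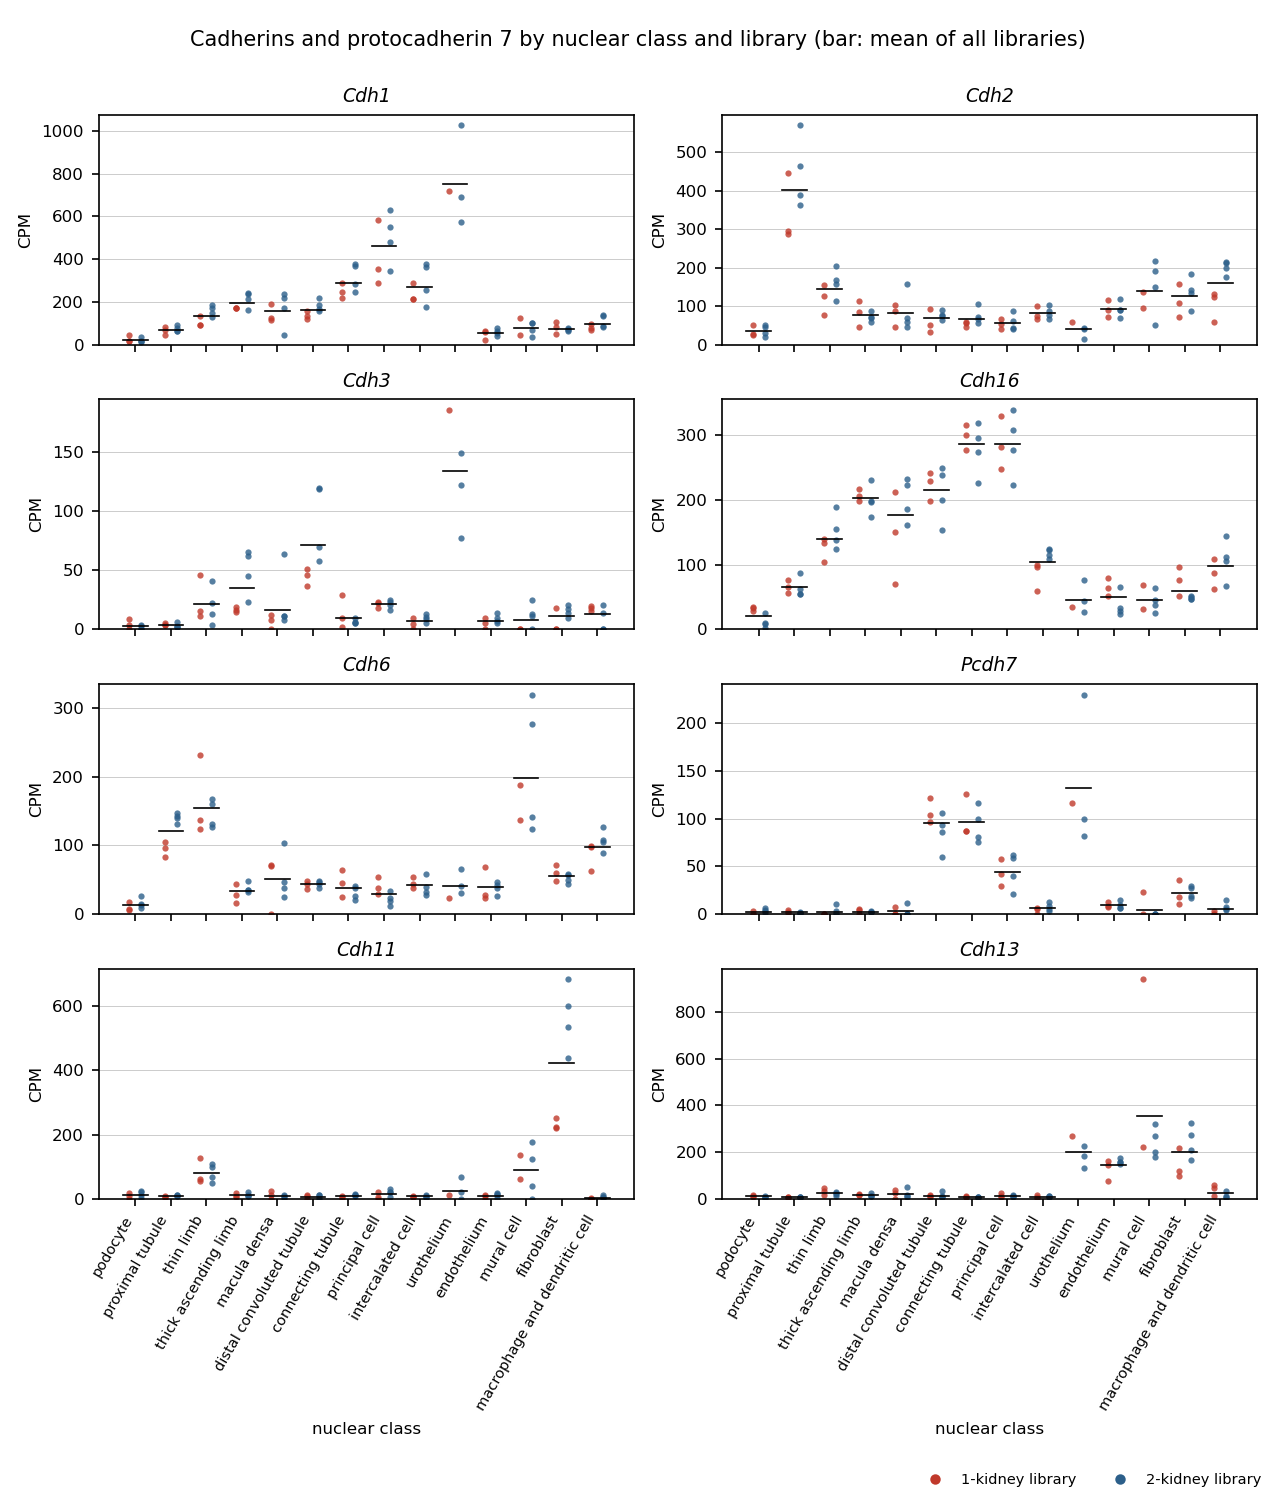
CPM of 7 cadherins and Pcdh7 in each nuclear class, with a point per library (1-kidney libraries left of 2-kidney libraries within a class) and a bar at the mean of all libraries. Cdh2 stands out in the proximal tubule (287 to 570 CPM) and Cdh11 in fibroblasts, where the 1-kidney points (219 to 252 CPM) lie below the 2-kidney points (440 to 683 CPM).

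The atypical members include Cdh16 (Ksp-cadherin, a kidney-specific cadherin with a short tail that lacks the catenin-binding region) and Cdh13 (T-cadherin, which is anchored to the membrane by a lipid). Cdh16 had its highest means from thin limb to collecting duct. The proximal tubule also exceeded the free-RNA level in 7 of 7 libraries, and intercalated cells did in 6 of 7. Principal cells had 329, 247 and 282 CPM in 1-kidney libraries and 277, 223, 338 and 307 CPM in 2-kidney libraries, and the connecting tubule 299, 276 and 315 CPM in 1-kidney libraries and 319, 225, 295 and 274 CPM in 2-kidney libraries. The order of these classes could not be told from their spread. The mean was 215 ± 34.1 CPM in the distal convoluted tubule, 202 ± 17.8 in the thick ascending limb, 140 ± 26.5 in the thin limb, 103 ± 22.0 in intercalated cells and 65.0 ± 12.4 in the proximal tubule (SD, n = 7). Intercalated clusters differed: 136 ± 24.2 CPM in the Slc4a1 (type A) cluster and 61.8 ± 22.8 CPM in the Slc26a4 (non-A) cluster, with no overlap of library values. The thick ascending limb exceeded the endothelium in 7 of 7 libraries, by 2.14 ± 0.66 on the log2 scale (SD; exact sign-flip test, adjusted p = 0.0179).

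Cdh13 had its highest means in mural cells, urothelium, fibroblasts and endothelium. Endothelial nuclei had 159, 77.5 and 146 CPM in 1-kidney libraries and 149, 159, 156 and 176 CPM in 2-kidney libraries. Fibroblasts averaged 200 ± 80.4 CPM (SD, n = 7) and the urothelium 202 ± 57.4 CPM (SD, n = 4), and the highest mean, 355 ± 291 CPM in mural cells (SD, n = 6), included 939 CPM in 1-kidney library 2, next to 220 CPM in the other 1-kidney library measured and 179 to 319 CPM in 2-kidney libraries. The ranges of these 4 classes overlap. The proximal tubule had 6.08 ± 1.30 CPM, below the endothelium in 7 of 7 libraries, and the log2 difference of endothelium over proximal tubule was 4.36 ± 0.36 (SD; exact sign-flip test, adjusted p = 0.0179). Of the other atypical members, Cdh23 and Pcdh15 (partners in the tip links of inner-ear hair cells) had 202 and 759 UMIs in all, Cdh26 had 223 and Cdh17 (LI-cadherin of intestine) had 27.

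Among the non-clustered protocadherins, Pcdh12, Pcdh17 and Pcdh19 had their highest mean in the endothelium and Pcdh9 and Pcdh18 in fibroblasts. Pcdh17, known from neurons, had 191, 255 and 282 CPM in endothelial nuclei of 1-kidney libraries and 196, 238, 266 and 285 CPM in those of 2-kidney libraries, and the groups overlap. All of these lay above the proximal tubule, the next class, at 58.7 ± 23.2 CPM (SD, n = 7), which itself exceeded the free-RNA level in all libraries. As with Cdh2, the Slc7a13 cluster of the proximal tubule was the higher, at 91.5 ± 41.3 CPM against 9.12 ± 2.68 CPM in the Slc13a3 cluster, with no overlap of library values. Pcdh19, a protocadherin that is linked to epilepsy in humans, averaged 129 ± 38.8 CPM in endothelium and 80.5 ± 27.4 CPM in fibroblasts (SD, n = 7), with overlapping ranges.

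Pcdh12 (VE-cadherin-2, an endothelial protocadherin) had 79.7, 42.5 and 63.4 CPM in endothelium of 1-kidney libraries and 55.4, 59.5, 34.9 and 70.3 CPM in that of 2-kidney libraries. Fibroblasts had 11.99, 43.9 and 18.0 CPM in 1-kidney libraries and 33.8, 12.6, 35.95 and 31.9 CPM in 2-kidney libraries. Endothelium was the higher in 5 of 7 libraries, with a mean log2 difference of 1.18 ± 1.05 that did not pass (SD; exact sign-flip test, p = 0.0625, adjusted p = 0.0625). With classes assigned nucleus by nucleus from a marker score, the difference passed (adjusted p = 0.0156 by the same exact test). Thus 7 of the 8 class contrasts passed.

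Pcdh7 (NF-protocadherin) was measured mainly in the distal convoluted and connecting tubules and the urothelium. The connecting tubule had 87.2, 126 and 86.9 CPM in 1-kidney libraries and 80.5, 99.3, 75.3 and 116 CPM in 2-kidney libraries, and the distal convoluted tubule averaged 95.1 ± 19.3 CPM. Principal cells had 44.2 ± 15.7 CPM, while intercalated cells had 6.12 ± 4.01, the thick ascending limb 2.47 ± 1.61 and the proximal tubule 1.76 ± 1.04 CPM (SD, n = 7). The highest mean was again in the urothelium, 132 ± 66.8 CPM (SD, n = 4), with a range that overlaps the connecting tubule. Pcdh1, known from human airway epithelium, averaged 52.1 ± 21.0 CPM in the urothelium (SD, n = 4) and 40.5 ± 37.2 CPM in mural cells (SD, n = 6), from 19 and 15 UMIs, and no other class passed 12.97 CPM. Pcdh9 averaged 31.5 ± 8.75 CPM in fibroblasts and had no UMI in podocytes, distal convoluted tubule, connecting tubule or macrophages and dendritic cells. Pcdh18 averaged 33.4 ± 8.03 CPM in fibroblasts and 24.8 ± 6.73 CPM in podocytes (SD, n = 7), with overlapping ranges, and these were the classes above its free-RNA level in all libraries.

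The clustered protocadherins were counted for 3 alpha, 16 beta and 18 gamma genes. Gamma UMIs were found in all classes, with the highest sums among those named here in stroma and vessels: the 18 genes summed to 518 ± 87.7 CPM in fibroblasts, 372 ± 74.6 CPM in endothelium and 99.1 CPM on average in the proximal tubule (SD, n = 7). Of the 18 genes, 17 had their highest mean in fibroblasts, 11 of them with the endothelium next, and Pcdhga1 had its highest in the macula densa. No gamma gene had a highest class whose library values stood apart from the next. Pcdhgc3, a gamma gene of the C type, averaged 143 ± 45.4 CPM in fibroblasts, 109 ± 28.0 in endothelium, 82.9 ± 28.9 in principal cells and 29.3 ± 4.95 CPM in the proximal tubule (SD, n = 7). Of the 10 gamma genes described, all exceeded the free-RNA level in every library in fibroblasts, endothelium and proximal tubule, 9 did in principal cells and thick ascending limb, and 0 did in mural cells or in macrophages and dendritic cells. Mural cells held only 54 gamma UMIs, with a sum of 183 ± 113 CPM (SD, n = 6). Their Pcdhgc3 mean was 52.4 CPM beside a free-RNA level of 22.6 CPM, exceeded in 3 of 6 libraries. Pcdhga10 had 25.7 CPM beside 8.17 CPM (5 of 6). Pcdhga5 and Pcdhgb8 had means below that level there. In the macrophages and dendritic cells Pcdhgc3 averaged 24.02 CPM beside a free-RNA level of 40.0 CPM, and it exceeded that level in 0 of 7 libraries. Pcdhga10 averaged 55.8 ± 11.6 CPM in fibroblasts and 46.8 ± 13.6 CPM in endothelium. The other 8 gamma genes described, Pcdhga5, Pcdhga7, Pcdhga9, Pcdhga11, Pcdhgb5, Pcdhgb6, Pcdhgb7 and Pcdhgb8, had fibroblast means of 21.9 to 37.7 CPM. Pcdha13, which holds 5668 of the 5779 alpha UMIs, averaged 204 ± 64.5 CPM in fibroblasts, 104 ± 39.3 in the thin limb, 87.1 ± 22.8 in the thick ascending limb and 19.2 ± 8.29 CPM in the proximal tubule. The 16 beta genes summed to 752 UMIs, with the highest mean sum in fibroblasts, 28.5 ± 7.32 CPM.

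**Figure D3:**
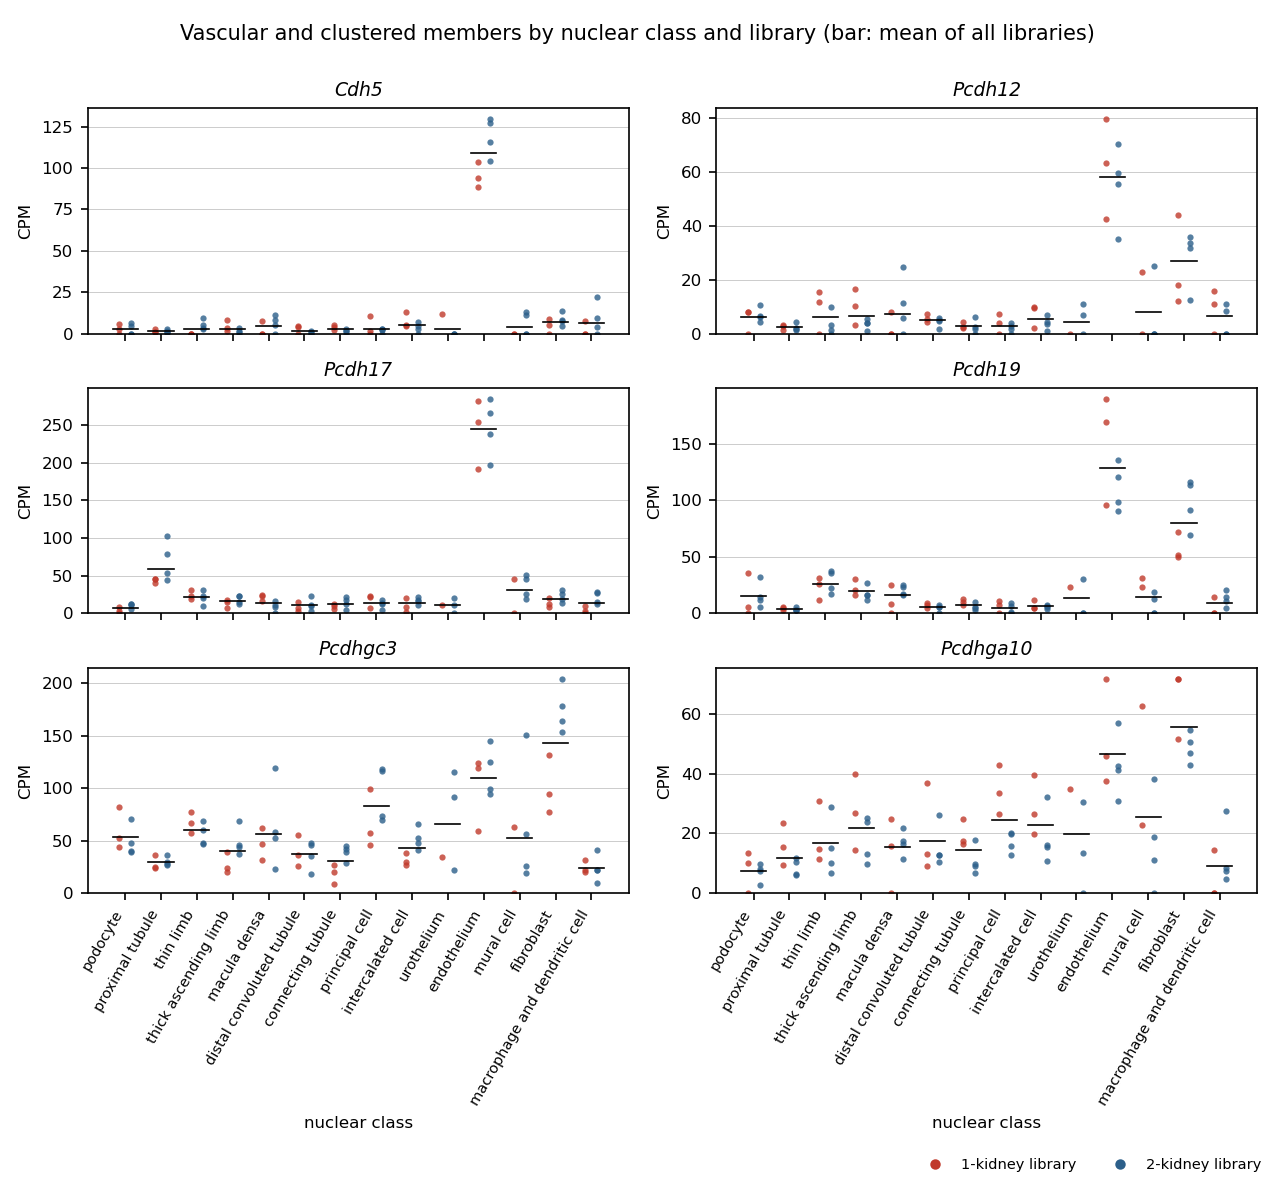
CPM of Cdh5, Pcdh12, Pcdh17, Pcdh19, Pcdhgc3 and Pcdhga10 in each nuclear class, with a point per library (1-kidney libraries left of 2-kidney libraries within a class) and a bar at the mean of all libraries. Cdh5 and Pcdh17 stand apart in the endothelium (means of 109 and 245 CPM), while the fibroblast values of Pcdhgc3 and Pcdhga10 (means of 143 and 55.8 CPM) overlap those of the next class.

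The gamma genes each have a promoter, and a shared element could be read in most of them. In mouse and human, promoters of clustered protocadherins are known for a conserved element with CGCT at its core. RefSeq promoters of the GRCr8 assembly, 250 bases before to 50 bases after the start, were matched for 50 of the 70 member symbols. The motif CGCT, any base, T, any 3 bases, CC, chosen after reading these promoters and searched on both strands, was found in 10 of 13 gamma promoters (of 12 genes), in the 1 alpha promoter matched, in 0 of 14 beta promoters, in 3 of 23 other member promoters and in 3.44% of 33469 rat promoters. Because the pattern was chosen after reading these promoters, the shares are no test. The 0 among beta promoters holds for this pattern alone, and other forms of the element were not searched. The match is a description of the letters, and binding was not tested. The windows of the 7 gamma genes described above that hold it are shown to let the shared and the differing bases be compared. Each has 61 bases, with the match in capitals, and the matches start 22 to 164 bases before the gene start in the 10 promoters.
Pcdhga5: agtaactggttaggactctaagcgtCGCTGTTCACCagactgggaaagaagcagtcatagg
Pcdhga7: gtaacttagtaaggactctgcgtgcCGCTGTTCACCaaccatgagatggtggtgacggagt
Pcdhga9: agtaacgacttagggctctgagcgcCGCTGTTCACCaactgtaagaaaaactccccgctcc
Pcdhga10: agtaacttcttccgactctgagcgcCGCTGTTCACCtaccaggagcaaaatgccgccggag
Pcdhga11: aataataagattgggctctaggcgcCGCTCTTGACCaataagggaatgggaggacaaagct
Pcdhgb8: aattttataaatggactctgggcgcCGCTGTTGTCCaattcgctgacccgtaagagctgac
Pcdhgc3: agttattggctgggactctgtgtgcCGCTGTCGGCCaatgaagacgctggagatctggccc
All lie on the plus strand of chromosome 18, from chr18:29770893-29770953 (Pcdhga5) to chr18:29884056-29884116 (Pcdhgc3), with that of Pcdhga10 at chr18:29825804-29825864. Of the 10 windows, 8 hold CGCTGTT. Among those shown, Pcdhga11 has CGCTCTT and Pcdhgc3 has CGCTGTC at that place.

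The comparison of 1-kidney with 2-kidney libraries asked whether the members differ between rats with a single kidney and rats with a pair. Counts were summed per library and class and fitted over all genes with edgeR's quasi-likelihood test, with Benjamini-Hochberg adjustment over all genes tested and a threshold of 0.05. Members were called in fibroblasts and in no other class: Cdh11 and Pcdhgc3 were lower in 1-kidney libraries. Whether the effect differs between classes was not tested. Overlap between the groups is given for named members, most of them picked for a small p. The share of all genes without overlap is not given, so a lack of overlap is no result about the members. In fibroblasts 16 members could be tested, 2 were called, and 5.0% of the 6523 genes tested were called (104 higher and 222 lower in 1-kidney libraries).

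Cdh11 in fibroblasts, with the values given above, did not overlap between the groups: its mean was 232 CPM in 1-kidney libraries and 564 CPM in 2-kidney libraries. The log2 fold change of 1-kidney over 2-kidney was -1.29 ± 0.22 (SE; edgeR adjusted p = 0.00511). It ranged from -1.003 to -1.39 over 14 alternative analyses and missed the threshold in 3 of them, with classes from the marker score (adjusted p = 0.157), with predicted doublets kept (adjusted p = 0.0592) and without 1-kidney library 2 (adjusted p = 0.0704), all with edgeR. Within the first library set, which holds all 1-kidney libraries and 2-kidney libraries 1 and 2, it was -1.30 (edgeR adjusted p = 0.00235). Pcdhgc3 in fibroblasts had 132, 77.4 and 94.4 CPM in 1-kidney libraries and 178, 164, 205 and 154 CPM in 2-kidney libraries, without overlap, and its log2 fold change was -0.89 ± 0.25 (SE; edgeR adjusted p = 0.0468). This call was lost in 13 of 14 alternatives, with DESeq2 among them (adjusted p = 0.0847). Pcdha13 in fibroblasts had 120, 126 and 198 CPM in 1-kidney libraries and 221, 227, 230 and 306 CPM in 2-kidney libraries, also without overlap, but did not pass (log2 fold change -0.69 ± 0.24, edgeR adjusted p = 0.0980).

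Markers of the class also differed between the groups. The 6 fibroblast markers summed to 1079, 1109 and 1219 CPM in fibroblasts of 1-kidney libraries and 2531, 2249, 2204 and 2482 CPM in those of 2-kidney libraries, and 0 of 6 had the higher mean in 1-kidney libraries. The 9 proximal tubule markers summed to 26938, 35832 and 26831 CPM in the same nuclei of 1-kidney libraries and 18510, 16954, 13858 and 9082 CPM in those of 2-kidney libraries, and 9 of 9 had the higher mean in 1-kidney libraries. Neither sum overlapped between the groups. Set against the fibroblast markers, an analysis added after seeing the data, Cdh11 had 23.3, 19.8 and 18.5 UMIs per 100 marker UMIs in 1-kidney libraries and 23.7, 23.7, 19.9 and 27.5 in 2-kidney libraries, with means of 20.5 ± 2.53 in 1-kidney and 23.7 ± 3.10 in 2-kidney libraries (SD; exact two-sided permutation test, p = 0.114). On that scale the groups overlapped. Pcdhgc3 had 8.98 ± 2.83 UMIs per 100 marker UMIs in 1-kidney libraries and 7.45 ± 1.31 in 2-kidney libraries (SD; exact two-sided permutation test, p = 0.457). The fibroblast marker sum itself differs between the groups, so these ratios cannot tell a change in the members from a change in the markers. The part of the marker sums in the Cdh11 and Pcdhgc3 differences was not tested. Fibroblasts made up 2.34, 4.68 and 3.23% of nuclei in 1-kidney libraries and 6.23, 2.77, 3.99 and 4.60% in 2-kidney libraries, and the smallest 1-kidney class held 53 nuclei.

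**Figure D4:**
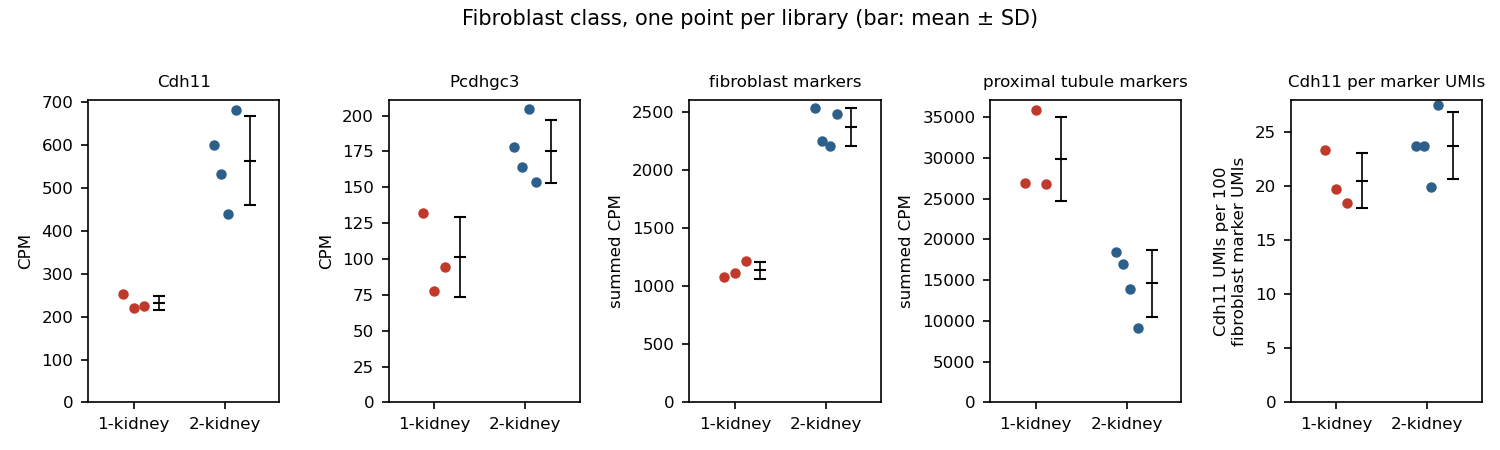
Fibroblast nuclei, with a point per library and a bar at the mean ± SD: CPM of Cdh11 and Pcdhgc3, summed CPM of 6 fibroblast and 9 proximal tubule markers, and Cdh11 UMIs per 100 fibroblast marker UMIs. The groups do not overlap for the CPM panels, the marker sums included. They overlap for Cdh11 UMIs per 100 marker UMIs (18.5 to 23.3 in 1-kidney and 19.9 to 27.5 in 2-kidney libraries).

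In the other 8 classes compared no member was called with edgeR, and the share of all genes called there was 0% of 11124 genes in the proximal tubule, 0% of 7927 in the thick ascending limb and 0% of 7452 in intercalated cells, 0.0772% in endothelium, 0.0473% in principal cells, 0.656% in the connecting tubule, 0.0488% in podocytes and 0.0678% in the distal convoluted tubule. An unadjusted p below 0.05 was found for 9 of 28 members in the proximal tubule (32.1%, beside 16.8% of all genes), 3 of 13 in the thick ascending limb (23.1%, beside 14.2%), 2 of 17 in endothelium (11.8%, beside 10.5%) and 2 of 14 in principal cells (14.3%, beside 18.7%). The same count was 2 of 7 in the connecting tubule (28.6%, beside 18.8% of all genes), 2 of 6 in podocytes (33.3%, beside 9.77%), 1 of 8 in the distal convoluted tubule (12.5%, beside 14.7%) and 1 of 7 in intercalated cells (14.3%, beside 12.9%). DESeq2 called 1 member in the proximal tubule, where it called 2.00% of genes, 1 in fibroblasts (6.40% of genes) and 0 in the other 7 classes. Without the low-count filter edgeR called 2 members in the thick ascending limb (0.943% of genes), 1 in the distal convoluted tubule (0.821%) and 1 in fibroblasts (2.83%).

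Markers moved with the groups in these classes too. The 9 proximal tubule markers summed to 15813 to 25329 CPM in principal cells of 1-kidney libraries against 3584 to 14581 CPM in those of 2-kidney libraries, and to 19240 to 21232 CPM in the connecting tubule of 1-kidney libraries against 7754 to 13885 CPM in that of 2-kidney libraries, without overlap. In the distal convoluted tubule, endothelium, intercalated cells, podocytes and thick ascending limb these sums overlapped, with 8 or 9 of the 9 markers having the higher mean in 1-kidney libraries. Of the classes' own markers, those of the distal convoluted tubule summed to 13300 to 14788 CPM in 1-kidney libraries and 15216 to 17011 CPM in 2-kidney libraries, without overlap. Principal cell markers summed to 1991 to 2455 CPM in 1-kidney libraries and 2611 to 3767 CPM in 2-kidney libraries, and connecting tubule markers to 20954 to 27117 CPM in 1-kidney libraries and 29098 to 43189 CPM in 2-kidney libraries, again without overlap. Thick ascending limb markers summed to 14099 to 17351 CPM in 1-kidney libraries and 16886 to 19839 CPM in 2-kidney libraries, with 0 of 6 higher on average in 1-kidney libraries. In the proximal tubule, thick ascending limb markers summed to 540 to 833 CPM in 1-kidney libraries and 992 to 1330 CPM in 2-kidney libraries. Thin limb markers there summed to 106 to 156 CPM in 1-kidney libraries and 157 to 234 CPM in 2-kidney libraries. Neither overlapped, while the sums of the other marker lists did, those of the proximal tubule among them. The part of all these sums in the values below was not tested.

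In the proximal tubule the member with the smallest p was Cdh6, with values of 82.3 to 105 CPM in 1-kidney libraries and 131 to 147 CPM in 2-kidney libraries. The groups do not overlap, and the log2 fold change was -0.60 ± 0.14 (SE; edgeR adjusted p = 0.227, DESeq2 adjusted p = 0.0225). The class had a different make-up in the groups: the Slc13a3 cluster, in which Cdh6 was the higher, held 15.7, 12.6 and 16.1% of proximal tubule nuclei in 1-kidney libraries and 20.3, 32.7, 51.2 and 44.8% in 2-kidney libraries, without overlap. The highest shares, 51.2 and 44.8%, were those of the second library set, which holds no 1-kidney library. In fits of single clusters, added after seeing the data, Cdh6 had a log2 fold change of -0.39 ± 0.23 in the Slc7a13 cluster and -0.28 ± 0.17 in the Slc13a3 cluster (SE; edgeR adjusted p = 0.445 and 0.493). The groups overlapped in both. In the Slc13a3 cluster only 2-kidney library 1, at 146 CPM, lay below the highest 1-kidney value, 150 CPM. The part of the class make-up in the Cdh6 difference was not tested. Cdh11 had 2.63, 7.55 and 6.18 CPM in 1-kidney libraries and 11.2, 9.75, 9.08 and 12.4 CPM in 2-kidney libraries, and Pcdhga9 16.4, 6.48 and 7.30 CPM in 1-kidney libraries and 5.59, 5.09, 3.99 and 3.79 CPM in 2-kidney libraries. Neither overlapped, and neither passed (edgeR adjusted p = 0.243 for each). In the thick ascending limb Pcdh15 had 19.997, 20.8 and 16.04 CPM in 1-kidney libraries and 8.997, 3.66, 7.12 and 1.98 CPM in 2-kidney libraries, from 26 and 19 UMIs. Cdh3 had 16.7, 14.6 and 19.3 CPM in 1-kidney libraries and 45.0, 22.9, 65.1 and 61.9 CPM in 2-kidney libraries. Their log2 fold changes were 1.95 ± 0.51 and -1.51 ± 0.40 (SE; edgeR adjusted p = 0.151 each). Pcdhgc3 followed at -0.81 ± 0.31.

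In the distal convoluted tubule, Cdh3 had 37.0, 46.2 and 51.1 CPM in 1-kidney libraries and 69.8, 57.9, 119 and 120 CPM in 2-kidney libraries. As in the thick ascending limb the groups did not overlap, and the log2 fold change of -1.02 ± 0.29 did not pass (SE; edgeR adjusted p = 0.166). In both classes the highest Cdh3 values were those of 2-kidney libraries 3 and 4, the second library set, which holds no 1-kidney library. Those of 2-kidney libraries 1 and 2 also lay above every 1-kidney value. Cdh1 followed at -0.37 ± 0.20 and Pcdh7 at 0.35 ± 0.23. In podocytes Pcdh15 had 26.1, 27.9 and 27.2 CPM in 1-kidney libraries and 12.3, 13.4, 8.04 and 2.43 CPM in 2-kidney libraries, from 27 and 18 UMIs (log2 fold change 1.72 ± 0.54, edgeR adjusted p = 0.325). Cdh16 there had 34.9, 27.9 and 32.7 CPM in 1-kidney libraries and 24.6, 2.68, 9.64 and 8.51 CPM in 2-kidney libraries (1.42 ± 0.51, edgeR adjusted p = 0.381), and exceeded the free-RNA level in 4 of 7 libraries. Pcdhgc3 there had a log2 fold change of 0.28 ± 0.31. In the connecting tubule Pcdha13 (-0.77 ± 0.29), Pcdhgc3 (-0.94 ± 0.37) and Cdh1 (-0.35 ± 0.20) had the smallest p-values, and Pcdhgc3 exceeded the free-RNA level in 6 of 7 libraries. In intercalated cells these were Pcdhgc3 (-0.69 ± 0.30), Cdh16 (-0.39 ± 0.22; above the free-RNA level in 6 of 7 libraries) and Pcdhga10 (0.63 ± 0.44).

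In endothelium Pcdh19 (0.54 ± 0.23), Cdh16 (0.73 ± 0.34) and Cdh13 (-0.42 ± 0.24) came first, with edgeR adjusted p of 0.415 or more. Cdh16 averaged 49.2 CPM there beside a free-RNA level of 49.0 CPM, which it exceeded in 4 of 7 libraries, and 9 of 9 proximal tubule markers had the higher mean in 1-kidney endothelium. In principal cells the smallest p-values were those of Pcdhga10 (0.95 ± 0.33), Pcdhga9 (1.17 ± 0.50) and Cdh6 (0.81 ± 0.40), the last at 29.7 CPM beside a free-RNA level of 33.3 CPM, which it exceeded in 2 of 7 libraries. Cdh2 in its main class, the proximal tubule, had a log2 fold change of -0.40 ± 0.23 with overlapping groups (edgeR adjusted p = 0.366).

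**Figure D5:**
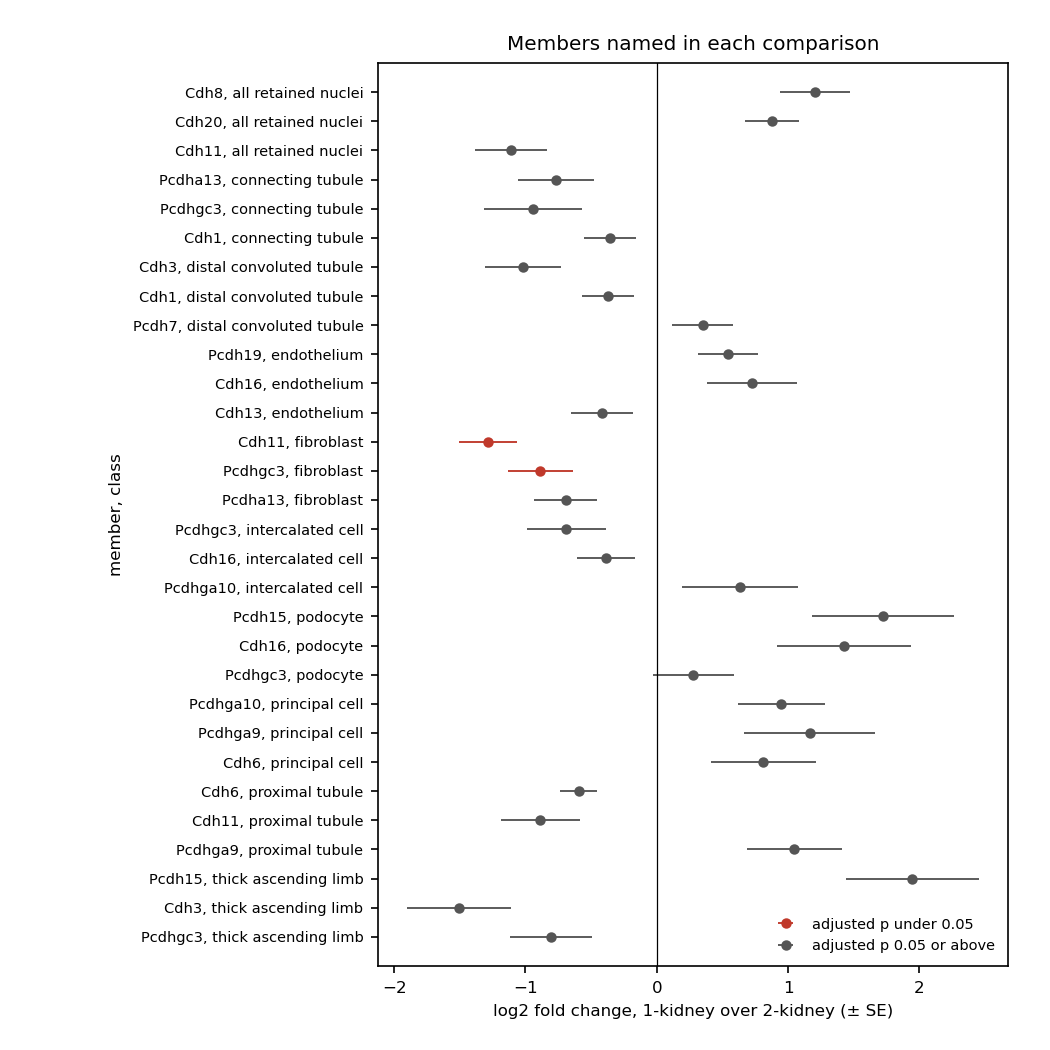
Log2 fold change of 1-kidney over 2-kidney libraries with its SE (edgeR) for the 3 members with the smallest p in all nuclei and in each of 9 classes. Of these, Cdh11 (-1.29) and Pcdhgc3 (-0.89) in fibroblasts have an adjusted p under 0.05.

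Summed over all nuclei, 54 members were tested and 0 were called by edgeR, which called 0% of 14940 genes. In such sums fewer cells of a type and less RNA per cell cannot be told apart. An unadjusted p below 0.05 was found for 11 of 54 members (20.4%) and for 20.5% of all genes. Cdh8, a type II cadherin of the nervous system, had 4.12, 2.75 and 2.43 CPM in 1-kidney libraries and 1.27, 1.35, 1.34 and 1.29 CPM in 2-kidney libraries. Cdh20 had 10.6, 8.80 and 7.45 CPM in 1-kidney libraries and 6.55, 4.48, 4.13 and 4.62 CPM in 2-kidney libraries, and Cdh11 9.32, 15.5 and 10.4 CPM in 1-kidney libraries and 39.8, 18.3, 19.1 and 28.6 CPM in 2-kidney libraries. None of the 3, which were picked for the smallest p, overlapped between groups, and the share of all genes without overlap is not given. Their log2 fold changes were 1.20 ± 0.27, 0.88 ± 0.21 and -1.11 ± 0.28 (SE; edgeR adjusted p = 0.162, 0.162 and 0.168). DESeq2 called 5 members, where it called 3.57% of genes: these 3, and Cdh26 and Pcdh15, which are named here after their values were seen. Cdh26 had 11.8, 3.24 and 2.37 CPM in 1-kidney libraries and 1.00, 1.71, 0.324 and 0.332 CPM in 2-kidney libraries, with 1-kidney library 1 far above the rest. Pcdh15 had 17.7, 10.1 and 7.73 CPM in 1-kidney libraries and 7.95, 4.89, 2.79 and 3.10 CPM in 2-kidney libraries, and those ranges overlap.

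The gamma genes had log2 fold changes above 0 for 16 of 18 in all nuclei, with a median of 0.26, and for 12 of 13 in the proximal tubule, with a median of 0.77, against a median of -0.01 over all genes in either. Of all genes tested in all nuclei, 7337 of 14940 lay above 0. Gamma transcripts share their last exons, so these counts may not be of independent genes. The sum of the gamma genes without Pcdhgc3 in all nuclei was 151, 108 and 101 CPM in 1-kidney libraries and 120, 97.1, 75.2 and 69.9 CPM in 2-kidney libraries, so that the groups overlap. This sum moved with library size, which was 5581726, 16366334 and 18121621 UMIs in the 1-kidney libraries and 14962864, 16976608, 24706804 and 27069633 in the 2-kidney libraries. The largest libraries and lowest sums were those of 2-kidney libraries 3 and 4, which form the second library set, without a 1-kidney library. The parts of library size and library set in this sum were not tested. Proximal tubule markers summed to 37737 to 43240 CPM in all nuclei of 1-kidney libraries and 19233 to 33959 CPM in those of 2-kidney libraries, with 7 of 9 higher on average in 1-kidney libraries.

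Partners of the cadherins were taken from 5 lists. In fibroblasts, the junction linkers and nectins had 12 genes tested, of which 1 was higher and 4 were lower in 1-kidney libraries, with a median log2 fold change of -0.23 beside -0.03 over all genes. Vcl (vinculin, which ties cadherin complexes under tension to actin) had 108, 59.3 and 103 CPM in 1-kidney libraries and 278, 492, 183 and 259 CPM in 2-kidney libraries. The groups do not overlap (log2 fold change -1.81 ± 0.34, edgeR adjusted p = 0.00749). Also lower were Cask, a membrane scaffold (-1.27 ± 0.26, edgeR adjusted p = 0.0116), and the actin crosslinkers Actn1 (-1.22 ± 0.26, edgeR adjusted p = 0.0120) and Actn4 (-0.76 ± 0.20, edgeR adjusted p = 0.0412). Afdn (afadin, the nectin partner) was higher, at 744, 568 and 513 CPM in 1-kidney libraries and 409, 399, 354 and 265 CPM in 2-kidney libraries (0.77 ± 0.22, edgeR adjusted p = 0.0486). Of 11 tested genes of cadherin cleavage and turnover, 1 was lower and none higher: Ptprm, a receptor phosphatase found at cadherin junctions (-0.86 ± 0.21, edgeR adjusted p = 0.0239). The list medians were -0.28 for cleavage and turnover, -0.45 for 7 catenins and related armadillo proteins and -0.26 for 6 large cadherins, and no catenin or large cadherin was called, nor was Dsp, the single desmosome gene tested (0.80 ± 0.37, edgeR adjusted p = 0.211). Ctnnd1 (p120 catenin, -0.51 ± 0.22, edgeR adjusted p = 0.185) and Fat4 (-1.19 ± 0.43, edgeR adjusted p = 0.107) had the smallest p in their lists. The fibroblast and proximal tubule marker sums given above differ between the same libraries, and their part in these changes was not tested.

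Outside fibroblasts edgeR called no gene of the 5 lists in any class or in all nuclei. In all nuclei the genes with the smallest p of each list were Vcl (-0.59 ± 0.14), Arvcf (-0.62 ± 0.16), Ptprm (-0.49 ± 0.16), Dsp (0.59 ± 0.21) and Cdhr5 (0.35 ± 0.14), with edgeR adjusted p from 0.162 to 0.217. Ptprm had the smallest p of its list in 6 of the other 8 classes, with a log2 fold change from -0.82 in principal cells to 0.69 in podocytes. In the proximal tubule Arvcf, a catenin of the p120 family, had the largest fold change among the list leaders (-1.08 ± 0.25, edgeR adjusted p = 0.225).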

How the data were processed

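Nuclear RNA of 7 rat kidneys was counted by droplet sequencing. The authors deposited a matrix of UMI counts for each library, with genes against barcodes. It was made with Cell Ranger 7.0, per the submitters' processing notes. No source used here names the genome build. A barcode was kept when it had 200 genes or more and a mitochondrial share of UMIs up to 5%. Scrublet's automatic threshold marked 0 to 4 barcodes a library, so the highest-scoring 0.8% per 1000 barcodes were removed as doublets instead. Nuclei were clustered with scanpy 1.11.5 and leidenalg 0.10.2 on 2000 variable genes without the members, using 30 components, 20 neighbours and a resolution of 1. A class could name a cluster when at least 3 of its markers were at least 2-fold and 1 of them at least 4-fold above the median over clusters. Folds were taken after adding 5 CPM. Among such classes the one with the highest single fold gave the name. The cluster stayed unnamed if another class with at least 3 markers above 2-fold had a larger share of its markers there. This rule was set after seeing the data. Counts were summed per class and library. Groups were compared with edgeR 4.0.16 (quasi-likelihood, trimmed-mean normalization, genes filtered by expression) in classes where each library had 50 nuclei or more, with DESeq2 1.42.0 as an alternative. The thin limb was left out of this, because one of its clusters had more parietal than thin limb markers among its top 10 genes, a step added after seeing the data, and so were cycling nuclei. The edgeR step was tested on simulated data. Class contrasts used log2(CPM + 1) and an exact sign-flip test over libraries. Alternatives were other normalization, no filter, classes by marker score, doublets kept, members among the variable genes, the library set as a term or left out, each library left out, and either group alone. Members with a mean of 20 CPM in some class were described. Between groups, the members past the threshold and the 3 with the smallest p in each fit were named, and of each partner list those past the threshold and the 1 with the smallest p. The members and lists were chosen with earlier results of these data known. Replicate numbers only name libraries.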

Additional observations from a re-analysis of the deposited data

Results flagged for a closer look

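In 76 groups of values from the 4 2-kidney libraries, the gap between an extreme library and the next was compared with the group's range, and 3 gaps were larger than Dixon's critical value. All 3 were in fibroblasts and above the rest. Chance flags about 1 in 20 such groups. Pcdha13 reached 306 CPM in its highest 2-kidney library, next to 230 CPM. Pcdhga9 reached 49.8 CPM in its highest 2-kidney library, next to 33.8 CPM. Pcdhgb6 reached 33.6 CPM in its highest 2-kidney library, next to 21.5 CPM. Transcripts of these loci share their last exons, and how the authors' counting divided such reads was not tested.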

How the results depend on the processing

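No paired analysis was possible because replicate numbers only name libraries. Of the counts of members called in fibroblasts (2), DESeq2, size factors of the relative-log-expression kind, the library set as a term, no low-count filter and the first library set alone each gave 1, classes by marker score and doublets kept each gave 0, and leaving out a library gave 0 to 2. The count for all nuclei (0) was 5 with DESeq2. In the proximal tubule (0) it was 1 with DESeq2. Without the low-count filter it was 1 in the distal convoluted tubule and 2 in the thick ascending limb. Leaving out a library gave 0 to 1 in the distal convoluted tubule, podocytes and the thick ascending limb. Apart from DESeq2 and no low-count filter, the share of all genes called in these alternatives is not given. Their counts therefore cannot be set against a background and are no result about the members. The class contrasts passed (7) fell to 0 with the first library set alone, since 5 libraries allow no p below 0.0625 in the exact test. The members whose highest class stood apart (4) were 8 in 1-kidney libraries alone, 11 in 2-kidney libraries alone and 1 with classes by marker score. With that score 15 of 28 members kept their highest class, Cdh2 not among them, and 26 did with doublets kept. The log2 fold change turned for Pcdhgc3 in podocytes as a library was left out (-0.13 to 0.52, below 0 without 1-kidney replicate 2), which was not called. The causes of these shifts were not tested. Of the other values, 642 kept direction and side of the threshold, 103 moved, 12 newly passed and 23 no longer passed. Depth limits urothelial and mural values most, since these classes held 157 and 204 nuclei, the fewest of those named.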

Other observations

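Nuclei left without a class had a mean of 114 ± 22.7 CPM for Cdh1, 129 ± 10.9 for Cdh16 and 94.0 ± 10.7 for Cdh6 (SD, n = 7), while Cdh2 had 99.5, 130 and 163 CPM in 1-kidney libraries and 145, 214, 273 and 216 CPM in 2-kidney libraries. In the Slc7a13 cluster of the proximal tubule fitted alone, an analysis added after seeing the data, Pcdh17 had a log2 fold change of 1-kidney over 2-kidney of -1.03 ± 0.24 (SE; edgeR adjusted p = 0.227) and Cdh2 of -0.59.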
